A study of Mus musculus with 2 samples.

Results

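The 10 genes described here are the metallothioneins Mt1 and Mt2 and 8 genes of the antioxidant response, Nqo1, Gclc, Gclm, Txnrd1, Srxn1, Slc7a11, Sod2 and Sod3. They were taken by symbol from the gene tables of both libraries and are 10 of the 19219 genes listed in both. Single-cell RNA-seq (scRNA-seq, droplet-based 3′ counting) was done on liver non-parenchymal cells (NPCs), the endothelial, mesenchymal, immune and biliary cells of the liver, from 2 C57BL/6 male mice that were 8 weeks old at the start. The control library, called Q, came from a mouse given olive oil intraperitoneally 2 times a week for 6 weeks and is labelled as a quiescent state, and the fibrosis library, called F, came from a mouse given CCl4 in olive oil on the same schedule. Carbon tetrachloride (CCl4) is a solvent that hepatocytes turn into a radical, and repeated dosing leads to liver scarring. With 1 mouse and 1 library in each group there is no replicate, so no test between Q and F was possible and no p-value is given. Effects of CCl4 and differences between 2 mice or 2 library preparations cannot be told apart in any value below. All intervals are 95% intervals that cover counting error only.

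After cells with 10% or more mitochondrial transcripts were left out, 7471 of 8130 cells remained in Q and 6132 of 6437 in F, with 44062632 and 53288463 unique molecular identifiers (UMIs, 1 for each captured transcript) in the deposited tables and medians of 4144.5 and 5619 UMIs per cell. The libraries share 15 cell barcodes. Cells were clustered in each library without the 10 genes, and classes were named "X-like" from marker lists. Of the kept cells, 452 in Q and 511 in F lay in clusters with markers of several lineages. Another 14 in Q and 629 in F lay in clusters that the naming rule left unnamed, some with markers of competing lineages. Neither group enters a class. The doublet caller Scrublet marked 1 cell in each library, and no doublets were removed here. In 17 classes both libraries held at least 50 cells, and portal fibroblast-like (PF-like) cells in F (79 cells) and erythroid-like cells in Q (772 cells) reached that number in 1 library. Hepatocyte RNA was found in every class. All 22 hepatocyte markers had UMIs in all 16 other classes, and their summed level lay between 106 and 482 per 10000 UMIs in Q and between 11.4 and 106 in F, so that Q carried more of this RNA. Class depth also differed: the UMIs per cell in F ran from 0.222 times those in Q in plasma cell-like cells to 2.87 times in macrophage-like cells.

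Metallothioneins are small cysteine-rich proteins that bind zinc, copper and cadmium, and their genes are switched on by the zinc-sensing factor MTF1 and by glucocorticoids. The transcription factor NRF2, held in check by KEAP1, drives the genes for glutathione synthesis (Gclc and Gclm encode the catalytic and the modifier subunit of glutamate-cysteine ligase), cystine import (Slc7a11, the light chain of system xc-), the thioredoxin arm (Txnrd1, thioredoxin reductase, and Srxn1, sulfiredoxin, which repairs overoxidised peroxiredoxins) and quinone reduction (Nqo1). Sod2 encodes the mitochondrial and Sod3 the secreted superoxide dismutase. In the liver, hepatocytes are the main site of metallothionein and glutathione synthesis, while the sinusoids are lined by liver sinusoidal endothelial cells (LSECs) and the space beneath them holds hepatic stellate cells (HSCs), which give rise to myofibroblasts (MFs).

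Mt1 and Mt2 are neighbours on mouse chromosome 8, and in the GENCODE annotation of GRCm38 Mt1 (chr8:94179082-94180327, plus strand) starts 5514 bases after the end of Mt2 (chr8:94172664-94173568, plus strand). The longest run of bases that their transcripts share is 20, so their reads can be told apart. The stretches before their starts are shown because the 2 genes had ratios above 1 in each class where they were counted, at the scale used below, and that of Srxn1 (chr2:152105516-152111376, plus strand) because it had the highest single ratio past the floor used below. Each printed stretch runs from 250 bases before the RefSeq start to 30 after it, on the plus strand of GRCm38.p6, at chr8:94178839-94179118 for Mt1, chr8:94172368-94172647 for Mt2 and chr2:152105274-152105553 for Srxn1. Capitals mark matches to the core letters of the metal response element (MRE, TGCACNC or TGCGCNC) and of the antioxidant response element (ARE, TGACNNNGC or TGAGNNNGC) on either strand.
Mt1: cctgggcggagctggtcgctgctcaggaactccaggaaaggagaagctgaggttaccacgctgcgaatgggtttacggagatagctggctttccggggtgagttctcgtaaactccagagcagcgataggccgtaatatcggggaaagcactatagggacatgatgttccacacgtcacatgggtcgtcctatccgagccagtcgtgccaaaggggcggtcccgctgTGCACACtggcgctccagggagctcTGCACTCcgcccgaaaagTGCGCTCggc
Mt2: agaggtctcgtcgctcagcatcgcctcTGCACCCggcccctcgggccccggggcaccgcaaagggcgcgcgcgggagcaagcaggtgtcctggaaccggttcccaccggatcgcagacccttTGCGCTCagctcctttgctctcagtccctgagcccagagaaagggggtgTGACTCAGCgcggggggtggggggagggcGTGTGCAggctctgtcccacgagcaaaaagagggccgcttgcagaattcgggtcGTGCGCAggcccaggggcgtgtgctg
Srxn1: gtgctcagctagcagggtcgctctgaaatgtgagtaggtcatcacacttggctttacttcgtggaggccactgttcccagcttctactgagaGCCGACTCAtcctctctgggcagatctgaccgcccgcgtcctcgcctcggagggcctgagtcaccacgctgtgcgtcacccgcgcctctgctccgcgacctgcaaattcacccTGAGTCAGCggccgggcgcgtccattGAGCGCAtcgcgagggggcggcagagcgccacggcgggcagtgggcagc
Over the whole RefSeq window of 300 bases, to 50 after the start, Mt1 held 3 MRE matches and no ARE match. Mt2 held 4 MRE matches and 1 ARE match, and Srxn1 held 1 MRE match and 3 ARE matches, the third of which begins 29 bases after the start and runs past the printed stretch. Of all 32851 such windows in the mouse genome, 25.7% held at least 1 MRE match, 1.97% at least 3 and 0.518% at least 4, while 27.8% held at least 1 ARE match and 0.630% at least 3. Windows were found for 8 of the 10 genes. Gclm held 3 MRE matches and 1 ARE match, of which 1 pair overlapped, Slc7a11 held 1 ARE match, Txnrd1 held 1 in 1 of its 3 windows, and Nqo1 and Sod2 held no match to either. A match describes letters and does not show a factor bound there.

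Levels are summed UMIs of a gene per 10000 UMIs of a class, and a ratio is the level in F over that in Q. A gene was counted as higher or lower in a class at a ratio of at least 2 or at most 0.5, if it reached 0.2 UMIs per 10000 in either library and 20 UMIs over both. Of 170 pairs of a gene and a class, 130 passed this floor. Among those, 35 pairs (26.9%) were higher in F, against 12.4% of all pairs of any gene and a class, and 8 pairs (6.2%) were lower, against 7.84%. These shares cover the pairs past the floor, not all pairs, and the floor was the same for all genes. A pair can pass it through 1 library alone, which fixes the direction of its ratio. All 9 higher Sod3 pairs and most Srxn1 pairs passed through F alone. Without Sod3, 26 of 119 pairs (21.8%) were higher. By gene, the higher pairs were 9 of 11 for Sod3, 8 of 16 for Mt2, 6 of 11 for Srxn1, 4 of 17 each for Mt1 and Txnrd1, 2 of 4 for Slc7a11, 1 of 3 for Nqo1 and 1 of 17 for Gclm, while Gclc and Sod2 had none. The lower pairs were 4 of Sod2, 3 of Gclm and 1 of Slc7a11, and 3 of these pairs were in cDC2-like cells, whose identity in Q is uncertain. The median log2 ratio over all genes was not 0 in each class. It ran from -0.18 in macrophage-like to 0.77 in hepatocyte-like cells and was beyond 0.1 in size in 11 of 17 classes, and with it as the scale the split was 32 higher and 14 lower. In the map of log2 ratios the rows of Mt1, Mt2 and Srxn1 hold no value below 0 at the scale of 10000 UMIs, where most Srxn1 and some Mt2 pairs passed the floor through F alone. With the median of all genes as the scale, 6 of the 17 Mt1 ratios and 1 of the 16 Mt2 ratios were below 1 and all 11 Srxn1 ratios stayed above it. The rows of Gclm and Sod2 are mostly below 0, with 11 and 16 of 17 ratios below 1, and 14 and 16 on that other scale.

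**Figure D1:**
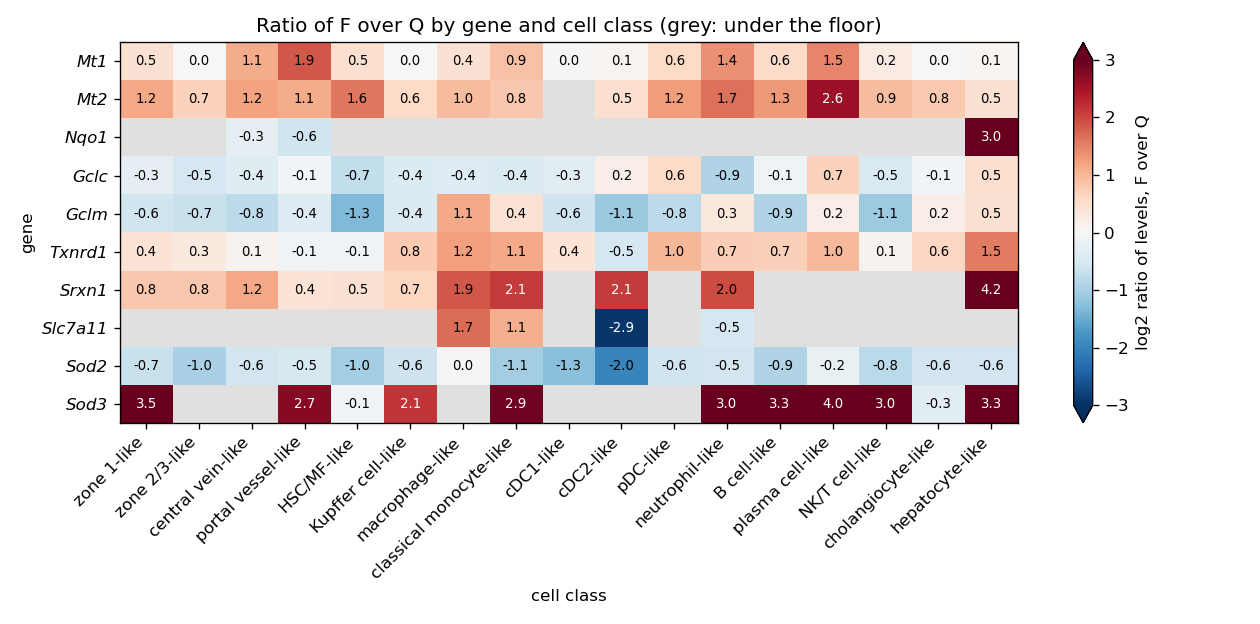
The log2 ratio of F over Q for each of the 10 genes (rows) in each of the 17 classes with at least 50 cells per library (columns), with red for higher in F, blue for lower and grey for pairs under the floor; the colour scale ends at 3 in either direction and each cell prints its value. At this scale the Mt1 and Mt2 rows hold no value below 0 (with the median of all genes as the scale, 6 Mt1 ratios and 1 Mt2 ratio are below 1), and the Sod2 row holds 1 value at 0 and the others below it.

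Among classes with at least 50 cells, Mt1 was most abundant in the sinusoidal endothelium of both libraries. In Q it reached 5.42 UMIs per 10000 in zone 2/3-like LSECs, which line the middle and the pericentral part of the sinusoid, and 4.89 in zone 1-like LSECs, which lie on the periportal side, and these 2 intervals overlapped. Hepatocyte-like cells followed at 4.0, HSC/MF-like cells at 2.92, erythroid-like cells at 2.34 and Kupffer cell-like cells, the resident macrophages of the sinusoid, at 2.08, and the lowest were portal vessel-like cells at 0.605 and plasmacytoid dendritic cell-like (pDC-like) cells at 0.524. In F the order began with zone 1-like cells at 6.75, zone 2/3-like cells at 5.49, hepatocyte-like cells at 4.18, HSC/MF-like cells at 4.05 and PF-like cells at 3.82, and ended with pDC-like cells at 0.792. Neighbours in this order had overlapping intervals in 15 of 17 places in Q and 14 of 17 in F. The places without overlap lay near the top, and most other adjacent classes cannot be ordered. The plot of metallothionein levels shows F to the right of Q in nearly all classes for both genes.

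**Figure D2:**
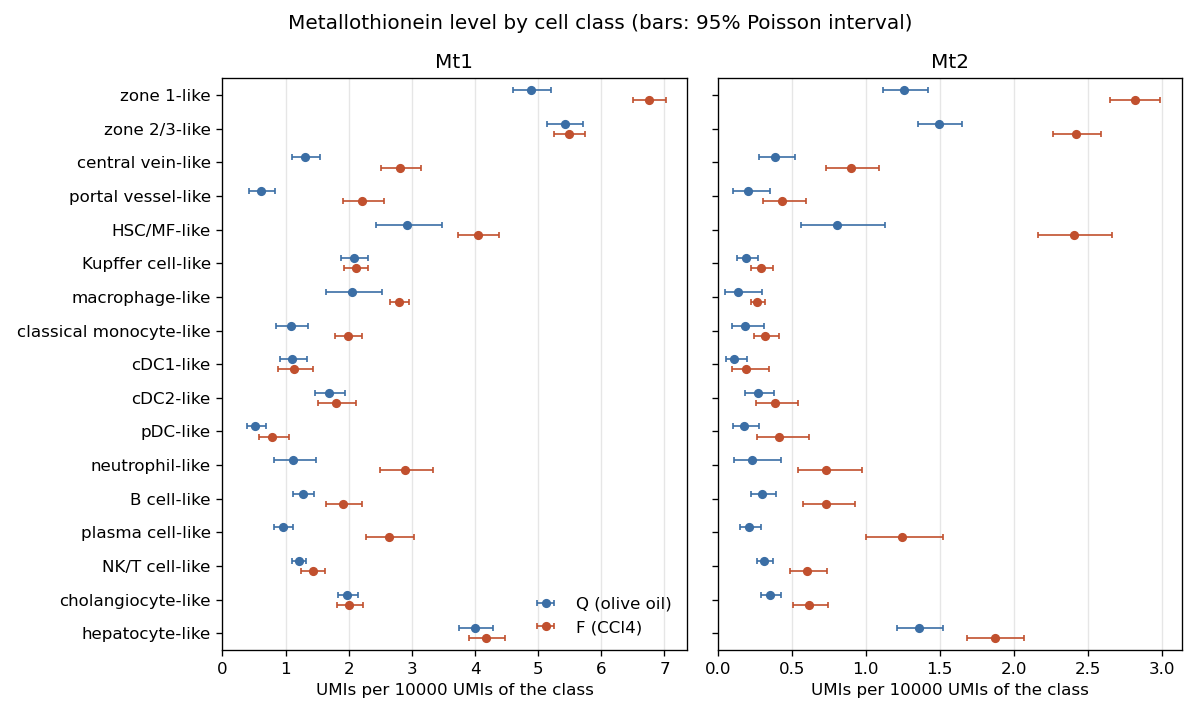
Levels of Mt1 (left) and Mt2 (right) in UMIs per 10000 UMIs of the class, for 17 classes, with Q in blue and F in red; points are the pooled level of 1 library and bars the exact 95% Poisson interval. Zone 1-like cells of F have the highest plotted level of both genes (6.75 and 2.82), and zone 2/3-like cells have nearly the same Mt1 level in both libraries (5.42 and 5.49).

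Between the libraries the endothelial zones differed. Mt1 in zone 1-like cells was 4.89 in Q (1076 UMIs in 333 cells) and 6.75 in F (2624 UMIs in 429 cells), a ratio of 1.38 (1.29 to 1.48). In zone 2/3-like cells it was 5.42 and 5.49, a ratio of 1.01 (0.947 to 1.08), so no difference was detectable there. Endothelial cells that took no zone name (1115 in Q, 554 in F) were not all alike and had an Mt1 ratio of 1.35 (1.27 to 1.43). A sub-cluster of each library (294 and 172 cells) had Nrg1 and Jag1 among its leading genes, and Nrg1 was also among those of vessel clusters. Another of Q (287 cells) had Akr1c14, as a hepatocyte-like cluster of Q had. Over LSEC-like cells as a whole, the zones together with these cells, Mt1 was 4.63 in Q (1920 cells) and 5.99 in F (1396 cells). The ratio of 1.29 (1.25 to 1.34) stayed under the 2-fold rule. Mt2, which is induced by the same metals, passed it. Its level in LSEC-like cells was 1.27 in Q and 2.57 in F, a ratio of 2.02 (1.90 to 2.16), where 3.3% of all genes were at least 2-fold higher and 5.64% at least 2-fold lower. In zone 1-like cells Mt2 was 1.26 and 2.82, a ratio of 2.24 (1.96 to 2.56), against 3.36% of all genes higher and 5.12% lower in that class. It was 1.93 at 1000 UMIs per cell and 1.88 with the top 5% of doublet scores left out, and in LSEC-like cells 1.92 with no filter on cells, so the 2-fold line was close. In zone 2/3-like cells it was 1.49 and 2.42, a ratio of 1.62 (1.44 to 1.83).

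Part of the zone 1 signal in F lay in 1 sub-cluster. The zone 1-like cells of F came from 2 sub-clusters, and the one of 188 cells, led by Il1a, Chst2 and Serpina3f, had Mt2 and Mt1 among its 10 leading genes although neither gene was used for clustering. Its Mt1 level was 8.16 and its Mt2 level 3.58, against 5.39 and 2.08 in the other sub-cluster of 241 cells, which was led by Slc45a4, Gucy1b1 and Msr1. All zone 1-like cells of Q formed 1 sub-cluster, with Msr1 and Slc45a4 among its leading genes. Between the 2 sub-clusters that share these leading genes, the ratio was 1.10 (1.01 to 1.20) for Mt1 and 1.65 (1.41 to 1.93) for Mt2, close to the 1.01 and 1.62 of zone 2/3-like cells.

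The levels came from many cells. After each cell was thinned to 1000 UMIs, Mt1 was seen in 41.7% (36.4 to 47.2) of zone 1-like cells in Q and 44.1% (39.3 to 48.9) in F, and unthinned in 87.1% and 91.4%, at median depths of 6332 and 8024 UMIs. In pDC-like cells, the class with the lowest level, the thinned shares were 6.25% and 9.43% and the unthinned ones 30.6% and 33.0%, at 6651.5 and 5213 UMIs. Thinned shares for Mt2 in zone 1-like cells were 11.7% (8.46 to 15.7) in Q and 23.1% (19.2 to 27.4) in F, against 2.08% and 4.72% in pDC-like cells. A second thinning gave 38.1% and 45.7% for Mt1 and 11.7% and 21.2% for Mt2 in zone 1-like cells. In the second thinning of LSEC-like cells, Mt2 was found in 15.2% of cells with Mt1 and 9.26% of cells without it in Q (1920 cells), and in 24.1% and 18.4% in F (1391 cells). These cells pool sub-clusters with different levels. Within zone 1-like cells the shares were 15.0% and 9.71% in Q and 26.0% and 17.2% in F. Within zone 2/3-like cells they were 12.5% and 11.1% in Q and 22.6% and 18.3% in F. Other classes had the opposite order, such as Kupffer cell-like cells of Q with 0% and 1.46%.

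Hepatocytes make much metallothionein, and hepatocyte RNA was present in all classes, so the 2 were set side by side. In hepatocyte-like cells there were 0.240 Mt1 UMIs for every 100 hepatocyte-marker UMIs in Q and 0.996 in F. In zone 1-like cells there were 2.67 and 39.7, and in zone 2/3-like cells 2.54 and 35.0, so that the LSEC zones held more than 10 times the Mt1 that hepatocyte-like cells carried per marker UMI in both libraries. Other classes came close to the hepatocyte-like value in Q: neutrophil-like cells had 0.231, pDC-like cells 0.258, B cell-like cells 0.310 and portal vessel-like cells 0.355. In F the lowest of the 16 classes was cholangiocyte-like cells at 1.90. The hepatocyte-marker level was lower in F in LSEC-like cells (210 in Q and 17.5 in F) while the Mt1 level was higher, as the plot of Mt1 against hepatocyte markers shows.

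In the endothelium of larger vessels, as clustered here, both metallothioneins had ratios above 2. Central vein-like cells (164 and 110 cells) had Mt1 at 1.31 and 2.82, a ratio of 2.15 (1.76 to 2.65), and Mt2 at 0.386 and 0.897, a ratio of 2.32 (1.60 to 3.43), in a class where 7.26% of all genes were higher and 8.67% lower. Which cells carry this name decided the value. With coarser clustering (resolution 0.4) the 2 ratios were 0.690 and 0.769, with the 10 genes and the pathway-list genes used for clustering 0.809 and 0.81, and with no filter on cells the Mt1 ratio was 0.983. Leaving out the top 5% of doublet scores gave 1.03 and 1.19. Portal vessel-like cells (81 and 98 cells) had Mt1 at 0.605 and 2.22, a ratio of 3.66 (2.56 to 5.39), with Mt2 at 0.202 and 0.434, a ratio of 2.15 (1.10 to 4.53) from 12 and 37 UMIs, and 7.73% of all genes were higher there and 7.55% lower. At 1000 UMIs per cell the Mt1 ratio of portal vessel-like cells was 0.827, on few UMIs.

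HSC/MF-like cells are named for stellate cells and the myofibroblasts they form, and their metallothionein ratios depended on the sub-cluster of F. Not all such cells are in the class. The whole-library cluster of this name held 405 cells in F and 139 in Q. Mesenchymal sub-clusters of 71, 62, 61, 59 and 43 cells in F and 62 in Q were left out. They had leading genes of other lineages or of cell division. Mt1 was 2.92 in Q (123 UMIs in 63 cells) and 4.05 in F (606 UMIs in 123 cells), a ratio of 1.39 (1.14 to 1.70). Mt2 was 0.807 (34 UMIs) and 2.41 (360 UMIs), a ratio of 2.98 (2.09 to 4.37), in a class where 8.94% of all genes were higher and 7.62% lower, and it stayed above 2 under 10 of the 11 alternatives that gave a value. A few cells held much of these counts, since the 3 cells with the most UMIs gave 32.5% of Mt1 in Q and 22.1% in F and 29.4% and 29.2% of Mt2. The clusters behind the name were not alike. The Q cells were led by Ccl5, Ccl4, Lrrc4c and Robo2, 68 of the F cells by S100a8 and S100a9, which mark neutrophils, and Il1b, followed by the HSC/MF markers Tmem56 and Angptl6, and 55 F cells by Ankrd1, Cyp2e1 and Ogn. In F the first had Mt1 at 2.83 and Mt2 at 1.24, and the second 4.68 and 3.01. With the 68 cells alone as F, the ratio was 0.968 (0.756 to 1.24) for Mt1 and 1.53 (0.994 to 2.40) for Mt2, so neither differed beyond counting error. With the 55 cells alone it was 1.60 (1.31 to 1.97) for Mt1, 3.73 (2.61 to 5.48) for Mt2, 0.366 (0.217 to 0.613) for Gclm, 0.475 (0.322 to 0.702) for Sod2 and 0.643 (0.576 to 0.719) for Sod3. Per cell rather than per 10000 UMIs the Mt1 ratio was 2.52.

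Elsewhere Mt1 did not differ beyond counting error in Kupffer cell-like cells (2.08 and 2.11), conventional dendritic cell-like cells of type 1 (cDC1-like, ratio 1.02), cholangiocyte-like cells (1.98 and 2.01) and hepatocyte-like cells (4.0 and 4.18, a ratio of 1.04 with an interval of 0.948 to 1.15). It was 1.11 and 2.89 in neutrophil-like cells, a ratio of 2.60 (1.88 to 3.65), and 0.960 and 2.63 in plasma cell-like cells, a ratio of 2.74 (2.22 to 3.38). Mt2 in the latter was 0.211 and 1.24, the highest Mt2 ratio of any class at 5.89 (3.99 to 8.83). Those 2 classes have high backgrounds. In neutrophil-like cells 27.3% of all genes were higher and 9.56% lower, in plasma cell-like cells 35.1% and 7.59%, and the plasma cell-like cells of F were shallow (a median of 1350.5 UMIs against 12803 in Q). Per cell the plasma cell-like ratios were 0.609 for Mt1 and 1.31 for Mt2. Across the 17 classes Mt1 ratios ran from 1.01 to 3.66 with a median of 1.38, with the interval above 1 in 10 classes and below 1 in none. Mt2 ratios in 16 classes ran from 1.38 to 5.89 with a median of 2.04, with the interval above 1 in 12 and below 1 in none. Kupffer cell-like, macrophage-like, classical monocyte-like and pDC-like cells passed the floor for Mt2 through F alone.

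The 2 subunits of glutamate-cysteine ligase did not go the way of the metallothioneins. In LSEC-like cells Gclc was 1.17 in Q and 0.883 in F, a ratio of 0.753 (0.692 to 0.818), and Gclm was 0.976 and 0.605, a ratio of 0.619 (0.562 to 0.683). Both were within 2-fold, and both had intervals wholly below 1. Over 17 classes Gclc ratios ran from 0.532 in neutrophil-like cells (1.76 and 0.937) to 1.62 in plasma cell-like cells, with 6 intervals below 1, 2 above and 9 that held 1, and no class passed 2-fold. Counted per cell, 12 of the 17 Gclc ratios were above 1. Hepatocyte-like cells of Q had more of both genes than LSEC-like cells, at 3.11 and 2.17, and the hepatocyte-marker level of LSEC-like cells was 210 in Q and 17.5 in F. In LSEC-like cells without the tenth that had the highest share of hepatocyte-marker UMIs the ratios were 0.764 and 0.634. Gclm ratios ran from 0.402 to 2.21, with 9 intervals below 1 and 3 above. The lowest was in HSC/MF-like cells, where Gclm was 0.831 in Q (35 UMIs) and 0.334 in F (50 UMIs), a ratio of 0.402 (0.256 to 0.638), although at 1000 UMIs per cell it was 1.15. NK/T cell-like cells had 0.942 and 0.440, a ratio of 0.467 (0.356 to 0.606), and cDC2-like cells 0.588 and 0.272, a ratio of 0.462 (0.273 to 0.754). The identity of most cDC2-like cells of Q is uncertain, as described below.

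Macrophage-like cells were the class in which Gclm was higher. They were named from macrophage markers, of which the Kupffer cell list shares C1qa, C1qb and C1qc, and numbered 68 in Q and 261 in F. Gclm was 0.876 (38 UMIs) and 1.94 (927 UMIs), a ratio of 2.21 (1.60 to 3.15), where 7.55% of all genes were higher and 17.4% lower. The thioredoxin arm was higher there too. Txnrd1 was 0.991 and 2.32, a ratio of 2.34 (1.72 to 3.25, and 1.64 with coarser clustering), and Srxn1 was 0.161 (7 UMIs) and 0.587 (281 UMIs), a ratio of 3.64 (1.74 to 9.14). Slc7a11 was 0.0922 (4 UMIs) and 0.293 (140 UMIs), a ratio of 3.17 (1.21 to 11.8), and 3 cells held 28.6% of its UMIs in F. Gclc, the catalytic subunit, was 1.04 and 0.792, a ratio of 0.764 (0.560 to 1.06), so the 2 subunits of the ligase lay on opposite sides of 1.

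**Figure D3:**
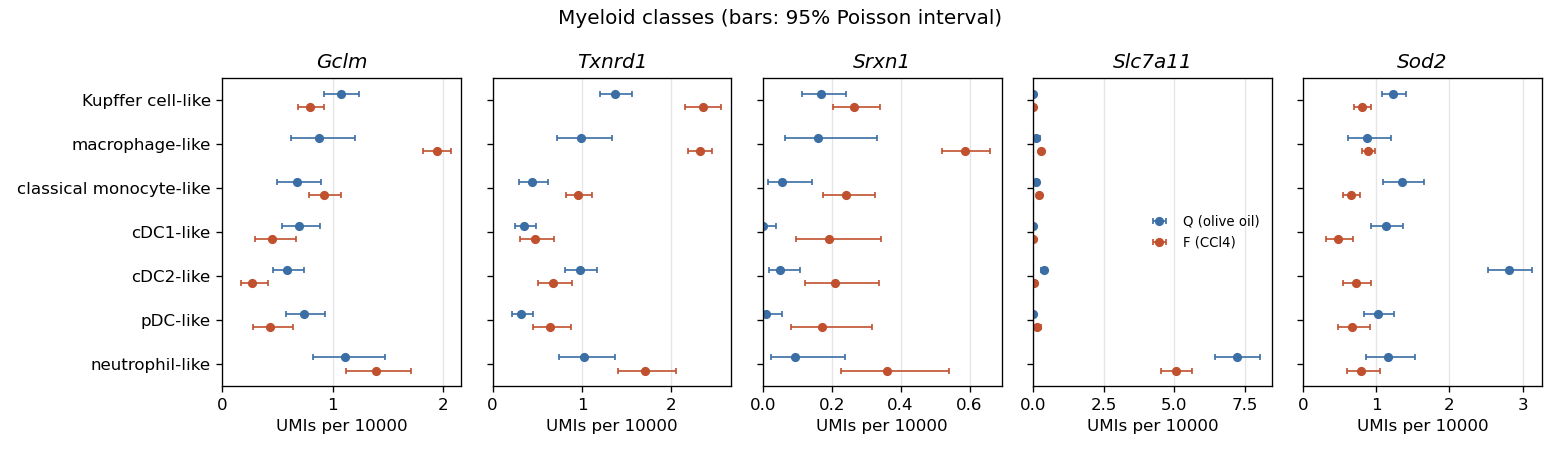
Levels of Gclm, Txnrd1, Srxn1, Slc7a11 and Sod2 in UMIs per 10000 UMIs of the class (a scale of its own for each gene) in 7 myeloid classes, with Q in blue and F in red; bars are exact 95% Poisson intervals. Macrophage-like cells of F stand apart for Gclm (1.94). They have the highest Srxn1 level (0.587), with an interval that overlaps that of neutrophil-like cells of F. Slc7a11 is high in neutrophil-like cells alone, and Sod2 is highest in cDC2-like cells of Q (2.81), where 1 sub-cluster of 65 cells that F lacks is at 5.21.

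The macrophage-like cells of F came from 2 sub-clusters, of which 1, of 65 cells, had a counterpart in Q. The leading genes of these 65 cells included the macrophage marker Cx3cr1 and the Kupffer cell marker Il18bp, so their name is less certain. In the 65 cells of F that had Cd207 among their leading genes, as the 68 cells of Q had, Gclm was 1.61 times (1.12 to 2.37) and Txnrd1 2.03 times (1.46 to 2.90) the level in Q. Srxn1 was 2.0 times (0.871 to 5.36, from 7 and 33 UMIs), Slc7a11 0.849 times (0.228 to 3.85) and Mt1 1.12 times (0.871 to 1.44), and these 3 intervals held 1. The larger sub-cluster of 196 cells, led by Fabp5, Atp6v0d2 and Spp1, had Gclm at 2.08, Txnrd1 at 2.40, Srxn1 at 0.659 and Slc7a11 at 0.351. The higher Slc7a11 level of macrophage-like cells in F was thus in the sub-cluster that Q lacked, and with coarser clustering its ratio in the class was 0.525. Kupffer cell-like cells (270 and 225 cells) had Txnrd1 at 1.37 and 2.35, a ratio of 1.71 (1.47 to 2.0), with Gclm at 1.07 and 0.793, a ratio of 0.741 (0.600 to 0.914).

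Classical monocyte-like cells, named for the blood monocytes that enter an injured liver, had 122 cells in Q, led by Ace and F13a1. There were 183 in F, led by Ifnb1, Ifnl2 and Ccl5. F13a1 was among the leading genes of both, but Ace is a marker of patrolling monocytes. Tppp3 and Fn1, also leading genes in Q, were among those of an unnamed cluster of 356 cells in F. The ratios of this class may thus compare unlike cells. In that class 11.9% of all genes were higher and the same percentage lower. Txnrd1 was 0.436 and 0.956, a ratio of 2.19 (1.49 to 3.33), and Srxn1 was 0.0563 (4 UMIs) and 0.242 (43 UMIs), a ratio of 4.30 (1.56 to 16.5). Slc7a11 was 0.0985 (7 UMIs) and 0.208 (37 UMIs), and its ratio of 2.11 had an interval of 0.930 to 5.62 that held 1. Txnrd1 was also higher in pDC-like cells, at 0.318 and 0.637, a ratio of 2.0 (1.21 to 3.33). Over 17 classes Txnrd1 ratios ran from 0.693 to 2.90 with a median of 1.53, and 11 intervals lay above 1 and 1 below. Srxn1 ratios in 11 classes ran from 1.34 to 18.0 with a median of 2.25, all above 1 and 8 with the whole interval above 1. Only central vein-like and portal vessel-like cells reached the floor in Q (0.226 and 0.202). The other Srxn1 pairs passed it through F alone, so their ratios had to be above 1. Most Srxn1 values rest on few UMIs, such as 4 and 23 in neutrophil-like cells (a ratio of 3.88, 1.32 to 15.4) and 24 and 56 in central vein-like cells (a ratio of 2.25, 1.37 to 3.79).

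Slc7a11, the cystine importer, was a neutrophil transcript in these libraries. In neutrophil-like cells it was 7.21 in Q (311 UMIs in 165 cells) and 5.06 in F (324 UMIs in 219 cells), a ratio of 0.702 (0.599 to 0.823). No other class was above 0.376, and in zone 1-like cells of Q there were 0 UMIs, which allows a level of up to 0.0136. After thinning, 44.9% (37.1 to 52.8) of neutrophil-like cells in Q and 42.8% (35.6 to 50.2) in F had a UMI of it, and unthinned 73.3% and 53.9%. In B cell-like cells at like depth (medians of 2776.5 and 2204 UMIs, against 2482 and 1776) the unthinned shares were 0.168% and 0.726%. The lower pooled value in F came with a shallow sub-cluster of 98 cells led by Hspa1a and Saa3 (a median of 1125.5 UMIs), where Slc7a11 was 2.12. In the other 121 cells of F it was 9.04, which was 1.25 times (1.06 to 1.49) the level in Q. In cDC2-like cells, Slc7a11 was 0.376 in Q (46 UMIs) and 0.0494 in F (4 UMIs), a ratio of 0.132 (0.0344 to 0.360), where 10.6% of all genes were higher and 8.83% lower.

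The cDC2-like cells of Q held 2 sub-clusters, and that difference bears on this value. One, of 65 cells led by Ccl17, Ccl22, Cxcl9 and Ccr7, genes of activated dendritic cells, had Slc7a11 at 0.843 and Sod2 at 5.21, and F had no sub-cluster of this kind under this name. The larger of 104 cells had Mpo, Elane and Prtn3, granule genes of neutrophil precursors, among its leading genes. Of its 10 leading genes, 6 are such granule genes and 3 are cDC2 markers, so its identity is uncertain and the cDC2-like cells of F have no clear counterpart in Q. The naming rule kept the name because these granule genes are in no marker list, and the cDC2-like ratios may compare unlike cells. Set against it alone, the 108 cells of F had Slc7a11 at 0.618 times the level, from 6 and 4 UMIs, Gclm at 0.416 times (0.240 to 0.701) and Sod2 at 0.554 times (0.393 to 0.775).

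Nqo1 was a gene of the larger endothelial vessels and of a small share of the hepatocyte-like cells of F. In central vein-like cells it was 0.555 in Q (59 UMIs) and 0.462 in F (51 UMIs), a ratio of 0.832 (0.561 to 1.23), and in portal vessel-like cells 0.319 and 0.211, a ratio of 0.661 (0.327 to 1.33). No difference was detectable in either at this depth, and the central vein-like ratio was above 1, from 1.29 to 3.05, under 6 alternatives. In the sinusoidal zones it was below the floor, at 0.0910 and 0.0360 in zone 1-like cells and 0.0669 and 0.0684 in zone 2/3-like cells. The other 12 classes besides hepatocyte-like cells had between 0 and 16 UMIs of it in a library.

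The cells named hepatocyte-like, which an NPC preparation is meant to leave behind, were unlike in the 2 libraries. In F, 654 of 801 had hepatocyte markers at 64.0 per 10000 UMIs, under the 106 of cholangiocyte-like cells, so the pooled values below compare a mixed class and the clusters are also given apart. Among pairs past the floor, the highest pooled ratios of Srxn1, Nqo1 and Txnrd1 were in this class. Srxn1 was 0.106 in Q (23 UMIs in 678 cells) and 1.91 in F (382 UMIs in 801 cells), a ratio of 18.0 (11.8 to 28.7). Nqo1 was 0.0461 (10 UMIs) and 0.379 (76 UMIs), a ratio of 8.24 (4.24 to 17.9), and Txnrd1 was 0.820 and 2.38, a ratio of 2.90 (2.44 to 3.47) that was 1.70 with the median of all genes as the scale. Gclc at 3.11 and 4.35 (1.40, with an interval of 1.26 to 1.55) and Gclm at 2.17 and 3.01 (1.38, with an interval of 1.22 to 1.56) were higher by less than 2-fold at this scale, and with the median of all genes as the scale they were 0.820 and 0.810. Without the tenth of cells with the highest share of hepatocyte-marker UMIs they were 0.765 and 0.494. In this class 36.9% of all genes were at least 2-fold higher and 6.64% lower, so a ratio of 2 to 3 there lies within what many genes showed. The median depths were low, 1448 and 1125 UMIs.

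**Figure D4:**
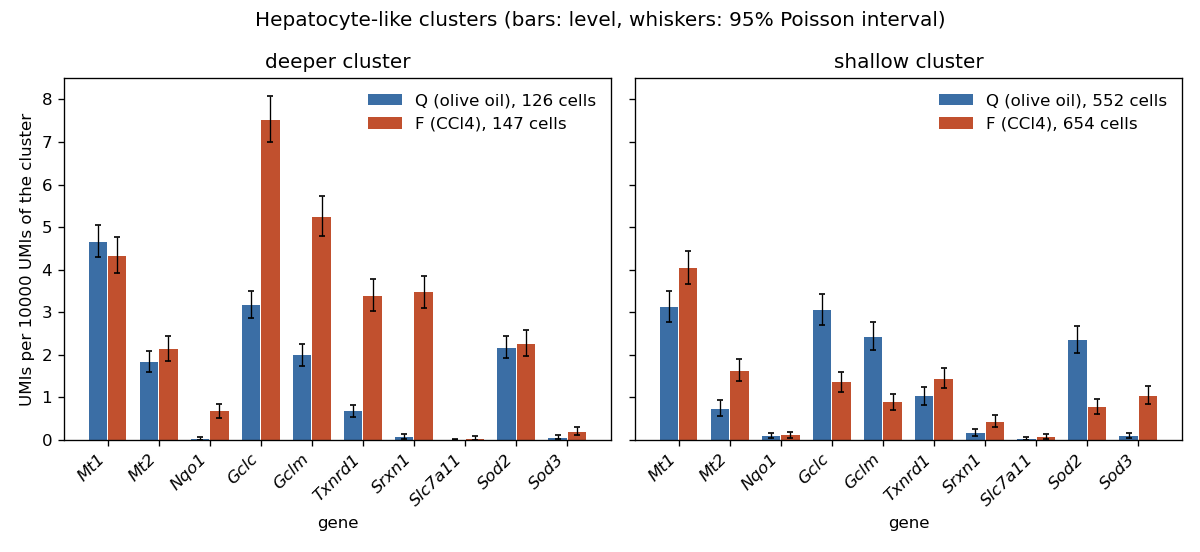
Levels of the 10 genes in UMIs per 10000 UMIs of the cluster, in the deeper (left) and the shallow (right) hepatocyte-like cluster, with Q in blue and F in red; bars start at 0 and whiskers are exact 95% Poisson intervals. In the deeper cluster Gclc, Gclm, Txnrd1 and Srxn1 are higher in F (7.52, 5.25, 3.39 and 3.47), while in the shallow one Gclc, Gclm and Sod2 are lower in F.

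Each library had a deeper and a shallow hepatocyte-like cluster, and Srxn1, Nqo1 and Txnrd1 had their larger ratios in the deeper pair, which numbered 126 cells in Q (a median of 7815 UMIs) and 147 in F (2038). There Srxn1 was 0.0644 (8 UMIs) and 3.47 (338 UMIs), a ratio of 53.9 (27.0 to 126), and Nqo1 was 0.0161 (2 UMIs) and 0.667 (65 UMIs), a ratio of 41.5 (11 to 350). Txnrd1 was 5.07 times, Gclm 2.64 times and Gclc 2.38 times the level in Q. By contrast Mt1 was at 0.930 times (0.818 to 1.06), Mt2 at 1.17 times (0.964 to 1.42) and Sod2 at 1.04 times (0.869 to 1.25), so the metallothioneins showed no detectable difference in the cells with the most hepatocyte RNA. Of all genes, 44.7% were higher and 7.01% lower in this pair. Few cells decide it. The 10 deepest cells of F held 50.8% of its UMIs, against 19.1% in Q. In F, 10 cells held 78.5% of the Nqo1, 76.0% of the Srxn1 and 66.7% of the Gclc UMIs, and 3 cells held 52.3% of the Nqo1 UMIs. The summed level of the 22 hepatocyte markers was 2209 in Q and 795 in F.

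In the shallow pair (552 and 654 cells, medians of 1321.5 and 1009.5 UMIs) Gclc was 0.443 times, Gclm 0.365 times and Sod2 0.328 times the level in Q, and Mt1 1.29 times and Mt2 2.21 times. Srxn1 was 2.64 times (1.44 to 5.12), Txnrd1 1.40 times (1.07 to 1.83) and Sod3 12.1 times (5.90 to 28.6), while Nqo1 was under the floor with 8 and 11 UMIs. Of all genes there, 31.3% were higher and 12.6% lower. These cells had hepatocyte markers at 950 in Q and 64.0 in F. Among the 10 leading genes of the F cluster were 3 immunoglobulin genes and 2 hepatocyte markers, so its identity is uncertain. Gclc and Gclm thus had ratios above 2 in one hepatocyte-like cluster and below 0.5 in the other.

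Sod2, which turns superoxide into hydrogen peroxide in the mitochondrial matrix, had a ratio below 1 in 16 of 17 classes, and in 13 when counted per cell. Its level in hepatocyte-like cells of Q was 2.24, and the hepatocyte-marker level was higher in Q in all 17 classes. What part this RNA had in the ratios of Gclc, Gclm and Sod2 was not tested beyond the values given. In LSEC-like cells it was 0.843 and 0.551, a ratio of 0.654 (0.590 to 0.725, and 0.664 without the tenth of cells with the highest hepatocyte-marker share), and in HSC/MF-like cells 1.26 and 0.615, a ratio of 0.488 (0.345 to 0.698, and 0.732 at 1000 UMIs per cell). Over 17 classes its ratio ran from 0.255 to 1.02, with 13 intervals below 1, none above and 4 that held 1. The lowest was in cDC2-like cells at 2.81 (344 UMIs) and 0.717 (58 UMIs), a ratio of 0.255 (0.190 to 0.338) that was 0.554 against the larger sub-cluster of Q alone, whose identity is uncertain. The other 65 cells of Q, with no counterpart in F, were at 5.21. Next came cDC1-like cells at 0.416 (0.263 to 0.638) and, with unlike leading genes in Q and F, classical monocyte-like cells at 0.483 (0.365 to 0.640). In macrophage-like cells, where Gclm and Srxn1 were higher, Sod2 was at 1.02 times (0.730 to 1.46).

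Sod3, the secreted enzyme that binds to matrix, was a gene of the mesenchymal cells in both libraries. In HSC/MF-like cells it was 12.7 in Q (534 UMIs) and 11.5 in F (1725 UMIs), a ratio of 0.909 (0.824 to 1.0). After thinning, 54.0% of these cells in Q and 57.7% in F had a UMI of it, and unthinned 82.5% and 87.0%, against 2.78% and 13.2% unthinned in pDC-like cells. PF-like cells of F had 2.53, and cholangiocyte-like cells, which line bile ducts, had 0.593 and 0.472, a ratio of 0.797 (0.609 to 1.04). The 2 HSC/MF-like sub-clusters of F had 18.1 and 8.15, so the one with the higher metallothionein level had the lower Sod3 level.

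Outside these classes Sod3 was near 0 in Q and low in F. Of its 11 pairs past the floor 9 were higher, and the others were those of HSC/MF-like and cholangiocyte-like cells. All 9 passed the floor through F alone, so that a ratio above 1 was fixed in advance. In LSEC-like cells it was 0.0289 (32 UMIs) and 0.226 (252 UMIs), a ratio of 7.82 (5.40 to 11.7), and in zone 1-like cells 0.0227 (5 UMIs) and 0.252 (98 UMIs), a ratio of 11.1 (4.6 to 34.9). The highest ratio was 15.8 (5.48 to 62.3) in plasma cell-like cells, from 4 and 26 UMIs. HSC/MF-marker RNA was also higher in F. All 21 HSC/MF markers had UMIs in LSEC-like cells of both libraries, and their summed level there was 3.18 in Q and 8.94 in F. Over the 16 classes other than HSC/MF-like cells between 14 and 21 of the 21 had UMIs in Q and between 19 and 21 in F, and the summed level was 0.827 to 5.34 in Q and 5.27 to 18.8 in F, against 457 and 476 in HSC/MF-like cells themselves. Per 100 HSC/MF-marker UMIs, Sod3 was 2.42 in HSC/MF-like cells of F and between 1.57 and 4.43 in the other 16 classes of F, so the HSC/MF-like value lies inside the range of the other classes. In Q the cholangiocyte-like cells stood out with 43.9, against 2.77 in HSC/MF-like cells, while LSEC-like cells were at 0.910 and zone 1-like cells at 0.711. What part free RNA had in the Sod3 ratios was not tested beyond these values.

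**Figure D5:**
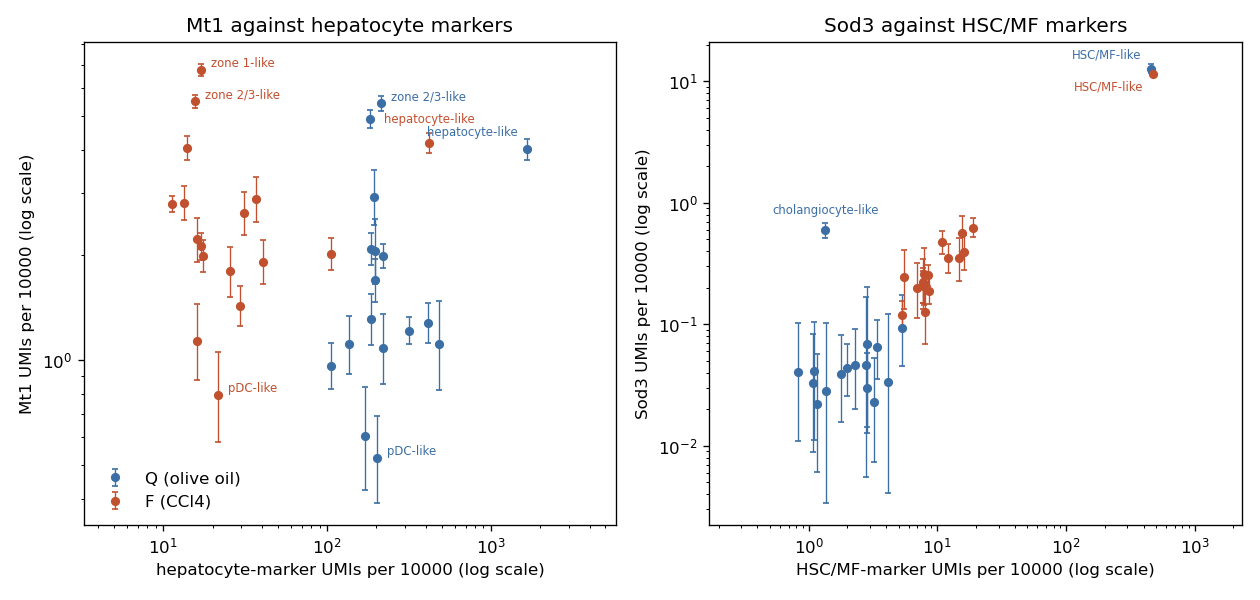
Left, the level of Mt1 against the summed level of 22 hepatocyte markers, and right, the level of Sod3 against that of 21 HSC/MF markers, for each of 17 classes in Q (blue) and F (red), in UMIs per 10000 on log scales; bars are exact 95% Poisson intervals for the plotted gene. Mt1 levels of the LSEC zones lie above the other classes at the same marker level, whereas Sod3 levels of F lie along a band that ends in the HSC/MF-like cells.

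The genes around these 10 in the same pathways were looked at in LSEC-like cells, by lists that exclude the 10 genes. The median log2 ratio of all genes past the floor was 0.05 there, with 3.3% of them higher and 5.64% lower. Of 16 genes for zinc transport and sensing, 12 passed the floor and none was past 2-fold in either direction (median 0.20). The largest were Slc39a13 at 1.66 times and Slc39a7 at 1.64 times, zinc transporters of the secretory pathway, and the smallest Slc39a3 at 0.920 times. Of 10 genes for NRF2 and its partners, 1 was higher and none lower (median 0.29). It was Maff, a small MAF protein, at 2.69 times, followed by Sesn2 at 1.45 times, and Cul3, the ligase scaffold that works with KEAP1, was at 1.02 times.

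Of 23 genes of the glutathione system 13 passed the floor, 0 were higher and 3 lower (median -0.20), led by Mgst1, a microsomal glutathione transferase, at 4.54 and 0.672 (0.148 times), with Abcc1 at 1.39 times and Gsr, glutathione reductase, at 1.29 times as the largest. Of 12 thioredoxin and peroxiredoxin genes 11 passed, 0 were higher and 3 lower (median -0.79), with Prdx6 at 0.451 times, Txn2 at 1.26 times and Prdx2 at 1.05 times. Of 10 genes for making and removing superoxide and peroxide 7 passed (median -0.18). Cybb, a subunit of the phagocyte NADPH oxidase, had the largest ratio at 6.68 times, and catalase (Cat) was at 5.12 and 1.32, 0.259 times. Cat and Mgst1 are abundant in hepatocytes, and the part that the higher hepatocyte RNA of Q had in these 2 values was not tested. Of 17 genes for NADPH supply and other NRF2 targets 15 passed, 1 was higher and 2 lower (median -0.22), with Hmox1, heme oxygenase 1, at 0.555 and 1.34 (2.41 times), Tkt at 1.47 times and Osgin1 at 0.480 times.

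Since glucocorticoids and stress also induce metallothioneins, genes of these responses were read as well. Of 10 glucocorticoid-response genes 9 passed, 3 were higher and 1 lower (median -0.14), with Per1 at 2.96 times, Sgk1 at 11.1 and 29.98 (2.69 times) and Errfi1 at 0.164 times. Of 13 immediate early and heat shock genes all passed, 1 was higher and 2 lower (median 0.03), with Hsph1 at 3.85 times, Atf3 at 1.52 times and Hspa1a at 0.380 times. Both lists held genes past 2-fold in either direction. The glucocorticoid list had a median of 0.61 in zone 1-like, 0.90 in zone 2/3-like and -0.29 in LSEC-like cells without a zone name. Its summed level over LSEC-like cells was 23.1 in Q and 42.0 in F, of which Sgk1 alone gave 11.1 and 29.98.

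In other classes the lists gave other counts. In hepatocyte-like cells, where 36.9% of all genes were higher and 6.64% lower, 11 of 18 glutathione genes and 10 of 16 NADPH and NRF2-target genes were higher with 1 lower in each (medians of 1.31 and 1.16, against 0.77 over all genes), while of 12 thioredoxin genes none was past 2-fold (median 0.05). In macrophage-like cells, with 7.55% and 17.4% of all genes higher and lower, 5 of 13 glutathione genes were higher and 2 lower (median 0.37, against -0.18 over all genes), and 4 of 16 NADPH and NRF2-target genes were higher and 4 lower (median 0.39). In HSC/MF-like cells, with 8.94% and 7.62%, 4 of 19 glutathione genes were higher and 4 lower, and 3 of 11 zinc genes were higher and none lower.

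Over the 36 class and library units with at least 50 cells, the log2 levels of Mt1 and Mt2 had a Pearson r of 0.825, those of Gclc and Gclm 0.705 and those of Txnrd1 and Srxn1 0.702, and the other pairs of the 10 genes lay between -0.293 and 0.531. These units come from 2 libraries and share their depth and free RNA, so the values are descriptions. Of the 5753 genes that reached 1 UMI per 10000 in some unit, those most like Mt1 in this pattern were Lamp2 (r of 0.753), Akr1b8 (0.750), Adam9 (0.744), Mmp14 (0.732) and Gpat4 (0.731). Those most like Nqo1 were Pgm5 (0.830), Selp (0.823), Cdh13 (0.821), Lims2 (0.810) and Fzd6 (0.809). Slc7a11 was nearest to Mmp8 (0.960), Acod1 (0.946), Ptgs2 (0.944), Slfn4 (0.941) and Cxcr2 (0.932), and Sod3 to Arvcf (0.979), Reln (0.963), Lamb1 (0.961), Lhfp (0.961) and Postn (0.956). Selp, Cdh13, Mmp8, Acod1, Cxcr2 and Reln were among the markers used to name classes. No gene had an r as high with Mt1 as Mt2 had, whereas all 5 genes named for Sod3 and for Slc7a11 were above 0.9.

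The annotated positions bear on how far some counts are certain. On the same strand, Gclm overlaps Gm6061, Slc7a11 overlaps Gm37498 and Gm37692, and Txnrd1 overlaps Eid3, and reads in the shared stretches may have been left out or assigned to either gene. On the opposite strand Mt2 overlaps Gm45774. No gene on either strand overlaps Mt1, Nqo1, Gclc, Srxn1, Sod2 or Sod3 in that annotation.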

How the data were processed

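Single-cell suspensions of liver NPCs from 1 olive oil-treated and 1 CCl4-treated mouse were sequenced by the authors with version 3 Chromium 3′ chemistry, and the submitters' processing notes name Cell Ranger 3.0.1 and the mm10 genome. The authors deposited for each library the UMI counts per gene and cell, without normalization. Following the study's methods, a cell needed under 10% mitochondrial UMIs and more than 200 genes. Each library was clustered alone (2000 variable genes without the 10 genes and the pathway lists, 10 principal components, 20 neighbours, Leiden resolution 0.8), and endothelial, mesenchymal and myeloid cells were clustered again, with scanpy 1.11.5 and leidenalg 0.10.2. Python 3.11.15, scipy 1.17.1, numpy 2.4.6, anndata 0.12.19, scikit-learn 1.9.0, pandas 2.3.3 and matplotlib 3.10.9 were also used.

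Clusters were named for the class that supplied most of their 10 leading genes by fold (level of 0.5 UMIs per 10000 or more), provided 3 or more markers of that class were raised. A whole-library cluster took no class if another lineage supplied at least 2 leading genes and a count of at least 0.5 times that of the class, and a sub-cluster only if 2 or more leading genes marked other lineages and outnumbered those of its own. This naming rule was chosen after the clusters had been seen, and a different naming would change the classes. Scrublet (expected rate 0.06) called 1 cell in each library. The study's methods say that doublets were excluded with the same tool, without saying whether before deposit, so none were removed here and the calls cannot show that none remain. The 10 genes, the marker lists and the pathway lists were chosen with earlier results of these data known. Named were all 10 genes in each class with at least 50 cells, from each pathway list the 2 genes with the largest and the 1 with the smallest ratio in LSEC-like cells, and the 5 genes most like Mt1, Nqo1, Slc7a11 and Sod3 by Pearson's r of log2(level + 0.1). Genes that lead clusters were named after their values were seen. One gene that the rule names is not reported here.

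Levels have exact Poisson, ratios exact conditional and shares of cells exact binomial (Clopper-Pearson) intervals at 95%, which cover counting error alone. Where a class had 0 UMIs, the level that 3 UMIs would give is stated as the upper limit. Before shares were read, cells were thinned to 1000 UMIs and those with fewer were dropped. With 1 library in each group no test was made. Simulated counts were Poisson draws from the summed Q profile of a class, without variation between cells, mice or preparations. The set changes were well past 2-fold, in genes above the floor. They check the calculation alone and cannot show how far the real calls hold. In simulated LSEC-like counts, 200 of 200 changed genes of 7398 and 0 of 7198 unchanged ones were called, and 95.5% of intervals held the true ratio. In simulated HSC/MF-like counts 197 of 200 changed and 252 of 7370 unchanged genes were called, so calls at that depth include false ones. Sequences are from RefSeq (GRCm38.p6) and positions from GENCODE.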

Additional observations from a re-analysis of the deposited data

Results flagged for a closer look

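For 2 of the 10 genes the ratio of F over Q passed 2-fold in opposite directions in different classes. With 1 library in each group these differences between classes were not tested. Gclm was higher in F in macrophage-like cells, at a ratio of 2.21, and lower in HSC/MF-like cells at 0.402, cDC2-like cells at 0.462 and NK/T cell-like cells at 0.467. Slc7a11 was higher in F in macrophage-like cells at 3.17 and in classical monocyte-like cells at 2.11, and lower in cDC2-like cells at 0.132. The Slc7a11 ratios rest on 4, 7 and 4 UMIs in the library with the lower level, and the monocyte interval of 0.930 to 5.62 holds 1. Between 1 sub-cluster of each library, Slc7a11 was 0.849 in macrophage-like cells, with 0.525 in that class at resolution 0.4, and 0.618 in cDC2-like cells from 6 and 4 UMIs, where the identity of the Q sub-cluster is uncertain. Gclm was 1.61 and 0.416 there, and in HSC/MF-like cells it was 1.15 at 1000 UMIs per cell.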

How the results depend on the processing

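No paired analysis was possible because each group has 1 library. The ratio of Mt1 in LSEC-like cells (1.29) was 1.47 at resolution 0.4, 1.79 per cell, 1.24 at 1000 UMIs per cell and 1.18 in cells with a zone name, and 1.25 to 1.31 under the other alternatives. In HSC/MF-like cells (1.39) it was 2.52 per cell, 1.76 at 1000 UMIs per cell, 0.968 with the sub-cluster of F led by S100a8 alone, 1.60 without it and 1.34 to 1.54 otherwise, with no value at resolution 1.5, with a 5% mitochondrial limit, with no filter or without the highest doublet scores, where under 50 cells of a library took this name. The 35 pairs higher in F became 23 at resolution 0.4, 5 with the 5% limit, 20 without the highest doublet scores, 21 with the 10 genes and the pathway-list genes used for clustering, 20 at 1000 UMIs per cell, 19 at 3-fold and 11 at a floor of 1 UMI per 10000. The 8 lower pairs became 3, 5 and 4 under the first 3 of these, 5 with no filter, 13 per cell, 14 on the scale of the median gene, 23 at 1.5-fold, 2 at 3-fold and 4 at the floor of 1 UMI per 10000. Fewer classes reached 50 cells at resolution 0.4 (13), with the 5% limit (5) without the highest doublet scores (14), and at resolution 1.5, with no filter and with the held-out genes used (15 each), against 17.

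Of 45 ratios past 2-fold, 6 turned direction under an alternative. They were those of Mt1 in central vein-like cells (0.690 at resolution 0.4, 0.983 with no filter, 0.809 with the held-out genes used), Mt2 there (0.769 and 0.81 under the first and the last of these), Mt1 in portal vessel-like cells (0.827) and Gclm in HSC/MF-like cells (1.15) at 1000 UMIs per cell, Slc7a11 in macrophage-like cells (0.525 at resolution 0.4, 0.849 in Cd207-led cells) and Mt1 in plasma cell-like cells (0.609 per cell). Of 93 ratios within 2-fold, 50 turned under at least 1 alternative, Gclm (1.25) and Slc7a11 (0.702) of neutrophil-like cells most often, under 11 and 9. Beyond the choice of cells that each alternative makes, the cause was not tested. Of the pairs past 2-fold that could be recomputed, 37 of 45 stayed past it per cell, 32 of 41 at 1000 UMIs per cell, 23 of 30 at resolution 0.4, 11 of 13 with the 5% limit and 43 of 45 without mitochondrial, haemoglobin and hepatocyte-marker UMIs, with LSEC-like cells as a whole counted among them. The restriction to single or matched sub-clusters, to cells with a zone name and the removal of the 3 classes with the highest background (24 higher and 8 lower pairs) were chosen after seeing the data. Depth limits some genes, since under 20 UMIs lay behind the values of Nqo1 and Slc7a11 in 15 of 17 classes in Q and 14 in F, of Sod3 in 15 and 5, of Srxn1 in 10 and 5 and of Mt2 in 6 and 1.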

Other observations

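Some cells of F took no class and still had metallothionein RNA. A cluster of 356 cells with Olr1 and Clec4e among its leading genes (a median of 5598.5 UMIs) had Mt1 at 3.98 and Mt2 at 1.11 UMIs per 10000, with Sod2 at 1.49, Txnrd1 at 1.22, Srxn1 at 0.515 and Slc7a11 at 0.425. Another of 243 cells led by Klrc2, Txk and immunoglobulin genes (a median of 1499 UMIs) had Mt1 at 2.95 and Mt2 at 1.14. A mesenchymal sub-cluster of 30 cells had Sod2 at 1.88.

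Mesothelial-like cells, the lining of the liver surface, came just short of 50 cells with 44 in Q and 48 in F, and their pooled levels of both metallothioneins were above those of the other named cells. Few cells carried them, since 3 cells held 31.8% of the Mt1 and 44.0% of the Mt2 UMIs in Q and 26.3% and 32.8% in F, and after thinning 29.5% of the Q cells had Mt1, against 41.7% of zone 1-like cells. Mt1 was 5.81 in Q and 8.40 in F, a ratio of 1.45 (1.27 to 1.65), and Mt2 was 1.79 and 5.24, a ratio of 2.92 (2.35 to 3.66). Txnrd1 in them was 0.179 (10 UMIs) and 0.709 (62 UMIs), a ratio of 3.95 (2.01 to 8.64), while Sod2, lower in F in most classes, was 0.987 and 1.76, a ratio of 1.78 (1.30 to 2.47). PF-like cells, with 44 cells in Q and 79 in F, had Mt1 at 2.08 and 3.82, a ratio of 1.83 (1.43 to 2.37), but Mt2 at 1.18 and 0.718, a ratio of 0.608 (0.418 to 0.898). No test was possible for any of these values.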
